A study of Mus musculus with 23 samples.

Results

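Articular cartilage of male Str/ort mice was compared between 18 and 8 weeks of age, the interval in which this strain is known to begin its joint disease. The comparison rests on 7 of the 23 arrays of the series, 4 from Str/ort at 18 weeks and 3 from Str/ort at 8 weeks, chosen by their labels. It covers all 19937 genes for which a probe set (a transcript cluster of the array) carries exactly 1 gene symbol.

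Both groups are males of the Str/ort strain with no treatment, transgene or induced injury in their labels. The age labels read 8, 18 and 40 weeks, and the same samples are also described as 8 to 10, 18 to 20 and 40 to 42 weeks old. Values in male CBA mice from Charles River, a strain that does not develop this disease spontaneously, are set beside them for 8 and 18 weeks (4 arrays each), and Str/ort at 40 weeks (4 arrays) gives the later level. How many mice stand behind an array is not stated in the labels. The series design calls the arrays biological replicates, and the p-values below measure the spread between these arrays.

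Str/ort is an inbred strain in which males lose cartilage from the tibial plateau as they grow older, so it serves as a model of osteoarthritis without surgery. Articular cartilage is made by chondrocytes, which keep up a matrix of type II collagen (Col2a1) and the proteoglycan aggrecan (Acan) and coat its surface with lubricin (Prg4). Matrix is broken down by collagenases such as Mmp13 and aggrecanases such as Adamts4 and Adamts5, and is protected by the inhibitors Timp1 and Timp3. In small joints the calcified layer under the cartilage lies directly on bone and marrow.

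All values are signals on the log2 scale, so a difference of 1 is a 2-fold change. The cartilage genes were present on every Str/ort array of the 2 ages, with Prg4 between 13.29 and 13.74. Genes of blood-forming cells were also high: the mean of 22 neutrophil markers lay between 12.09 and 12.48 and that of 20 erythroid markers between 10.44 and 11.33, against array medians of 7.83 to 8.00 over all clusters. Each change below is therefore one of the whole sample, in which fewer cells of a type and less RNA per cell cannot be told apart. The SD of an array's difference from the rest of its group, over all genes, was 0.173 to 0.265 in the 7 arrays. For replicate 1 of CBA at 8 weeks it came to 0.454 and for replicate 3 of CBA at 40 weeks to 0.656, and both enter the shared estimate of spread. Results are given from 2 fits, one of all 23 arrays and one of the 21 arrays without that pair; every Str/ort difference has the same size in both, and only its error differs.

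One 8 week array goes partly against its label. Xist, the RNA that silences the second X chromosome of females, was 7.76 in Str/ort 8 weeks replicate 1 and 5.94 and 5.91 in replicates 2 and 3. The Y-linked gene Eif2s3y, a translation initiation factor subunit, was 10.62 in the same array and 10.58 and 10.38 in the other two. Without this array the fit of 21 arrays called 86 genes higher and 609 lower, against 344 and 1325 with it. The loss was not particular to this array: the counts were 88 and 400 without replicate 2 and 93 and 518 without replicate 3. In the fit of 23 arrays without replicate 1, Fkbp5, Zbtb16, Per1, Hspa1a and Jhy kept their calls.

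With all 23 arrays, 10 genes passed an adjusted p of 0.05 between 8 and 18 weeks. Higher at 18 weeks were 7 (0.0351% of the genes tested): Zbtb16, Fkbp5, Nr4a3, Tsc22d3, Per1, Hspa1a and Fzd1. Lower were 3 (0.015%): Jhy, Elp4 and Prorp. In the fit of 21 arrays 344 genes were higher (1.73%) and 1325 lower (6.65%), and the 10 genes were among them. A fit of the 11 Str/ort arrays alone called 271 higher (1.36%) and 997 lower (5%), and 1109 of these 1268 were also called with 21 arrays. The median SE of a gene's change was 0.126 with 23 arrays, 0.0914 with 21 and 0.0889 with 11. Over all genes the median change was 0.018, with 10752 genes above 0 and 9185 below. All 18 week arrays lay above all 8 week arrays for 2035 genes (10.2%) and below them for 2955 (14.8%). The plot of all genes shows that most of the calls made with 21 arrays are falls of less than 1.

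**Figure D1:**
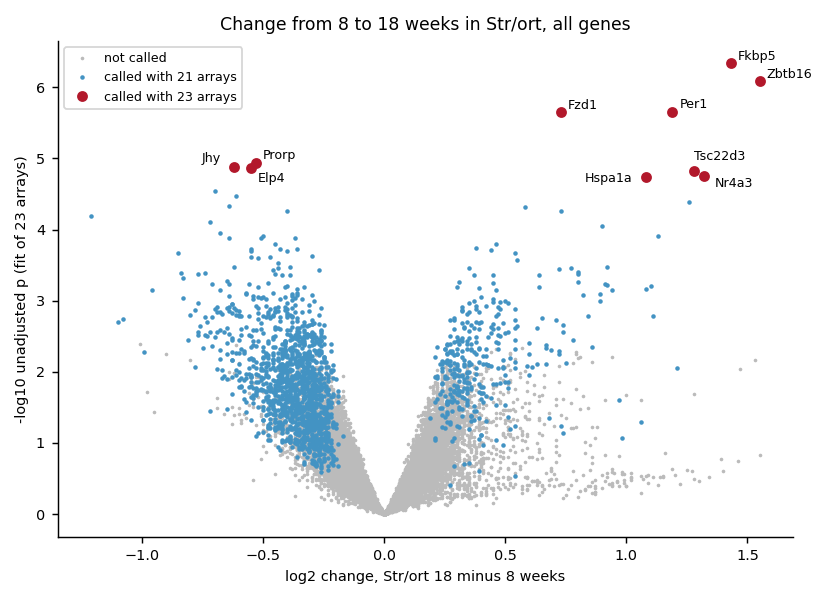
Change from 8 to 18 weeks in Str/ort (horizontal, log2, 18 minus 8 weeks) against the −log10 of the unadjusted p in the fit of 23 arrays (vertical), 1 point per gene. Red points are the 10 genes called with 23 arrays, blue points those called with 21 arrays only, and grey points genes not called; the 7 called rises lie to the right, at 0.73 to 1.55.

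Of the 7 called rises, those of Fkbp5, Zbtb16, Tsc22d3 and Per1 were in genes known as targets of the glucocorticoid receptor in many cell types. Fkbp5, a co-chaperone that lowers the affinity of steroid receptors for hormone, was 9.02, 9.29 and 8.94 at 8 weeks and 10.88, 11.05, 10.05 and 10.08 at 18 weeks. Zbtb16, a zinc finger transcription factor, was 9.13, 9.23 and 9.10 at 8 weeks and 10.86, 11.32, 10.34 and 10.31 at 18 weeks. Neither gene overlapped between the ages, and in both the first pair of 18 week arrays stood above the second pair. Fkbp5 rose by 1.43 ± 0.2 (SE; adjusted p = 0.00819) and Zbtb16 by 1.55 ± 0.226 (adjusted p = 0.00819). Tsc22d3, which encodes the anti-inflammatory leucine zipper protein GILZ, was 9.85, 9.65 and 9.48 at 8 weeks and 11.38, 11.41, 10.49 and 10.49 at 18 weeks, a rise of 1.28 ± 0.229 (adjusted p = 0.0363). Per1, a repressor in the circadian clock that glucocorticoids also induce, was 8.96, 8.87 and 8.78 at 8 weeks and 10.36, 10.52, 9.77 and 9.59 at 18 weeks. Its rise was 1.19 ± 0.186 (adjusted p = 0.0111). At 40 weeks the Str/ort means were lower than at 18 weeks for each of these genes, at 9.47 for Fkbp5, 9.46 for Zbtb16, 10.11 for Tsc22d3 and 9.48 for Per1.

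Leaving out single arrays moved these calls in the fit of 23 arrays. Fkbp5 kept its call in 6 of 7 such fits (adjusted p = 0.103 without 8 weeks replicate 3) and Zbtb16 in 5 (0.0597 and 0.103 without 8 weeks replicates 2 and 3). Per1 kept its call in 3 (0.0618 to 0.122 without 8 weeks replicates 2 or 3 or 18 weeks replicates 1 or 2) and Tsc22d3 in 2, those without 18 weeks replicates 3 or 4. In the fit of 21 arrays all of them, and each of the other called genes, kept their calls whichever of the 7 arrays was left out. In that fit, with the muscle mean and the erythroid mean added as 2 covariates, the change was 1.08 for Fkbp5, 1.11 for Zbtb16, 1.03 for Tsc22d3 and 0.80 for Per1, none of them called (adjusted p = 0.0866, 0.0679, 0.164 and 0.166).

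**Figure D2:**
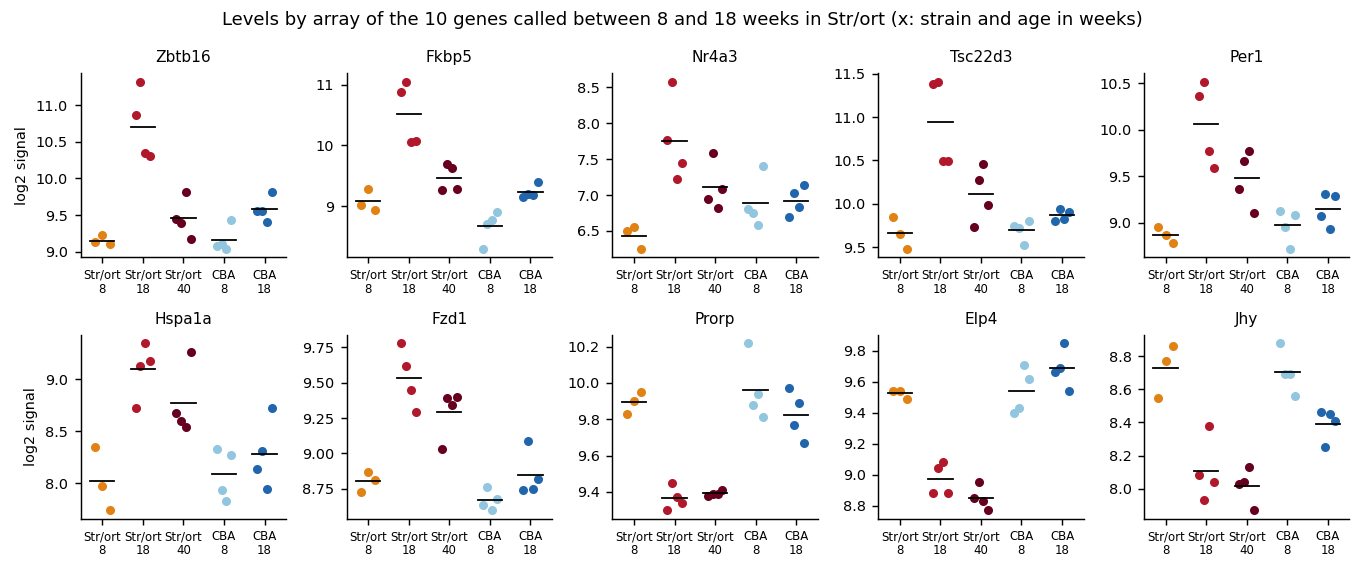
Log2 signal (vertical) by array of the 10 genes called between 8 and 18 weeks, for Str/ort at 8, 18 and 40 weeks and CBA at 8 and 18 weeks; each point is 1 array and each bar a group mean. The 18 week Str/ort arrays lie apart from the 8 week ones in all 10 panels; Fkbp5 is between 10.05 and 11.05 at 18 weeks and between 8.94 and 9.29 at 8 weeks.

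The stretches before the starts of Fkbp5 and Per1 are shown because these 2 called genes hold the E-box CACGTG, the letters that the clock proteins CLOCK and BMAL1 are known to bind, which read the same on both strands. The sequences are RefSeq promoter windows of GRCm38.p6 (250 bases before to 50 after the start), 9 of the 10 called genes have 14 such windows, and the E-box, in capitals, is in 2 of the 14 and in 7.15% of all 32851. The Fkbp5 stretch is chr17:28486260-28486339 on the minus strand, with the E-box 169 bases before the start, and the Per1 stretch is chr11:69098759-69098838 on the plus strand, with the E-box 166 bases before the outer of its 2 starts.
Fkbp5: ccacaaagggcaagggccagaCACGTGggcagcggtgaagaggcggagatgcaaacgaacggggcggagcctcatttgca
Per1: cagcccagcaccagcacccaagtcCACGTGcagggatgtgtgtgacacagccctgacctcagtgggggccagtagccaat
The palindrome of a full glucocorticoid receptor element, AGAACA followed after any 3 bases by TGTTCT, was in 3 of the 32851 windows on either strand and in none of the 14. Letters this rare would be missing from almost any 14 windows, so their absence says nothing about the called genes.

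The remaining rises that passed the test were in a nuclear receptor, a chaperone and a Wnt receptor. Nr4a3, an orphan nuclear receptor switched on early by many stimuli, was 6.5, 6.55 and 6.25 at 8 weeks and 7.77, 8.58, 7.23 and 7.45 at 18 weeks, and rose by 1.32 ± 0.24 (adjusted p = 0.0363). Hspa1a, the inducible HSP70 chaperone, was 8.35, 7.97 and 7.74 at 8 weeks and 8.72, 9.13, 9.35 and 9.18 at 18 weeks, and rose by 1.08 ± 0.196 (adjusted p = 0.0363). Unlike Fkbp5, Hspa1a was lowest at 18 weeks in replicate 1. Fzd1, a receptor for Wnt ligands, was 8.73, 8.87 and 8.81 at 8 weeks and 9.78, 9.62, 9.45 and 9.29 at 18 weeks, and rose by 0.73 ± 0.114 (adjusted p = 0.0111). With single arrays left out of the fit of 23, Nr4a3 and Fzd1 kept their calls in 2 of 7 fits (highest adjusted p 0.304 and 0.103) and Hspa1a in 3 (highest 0.395). The next genes by p were not called with 23 arrays but were with 21: Ddit4, an inhibitor of mTORC1 signalling, at 1.26 ± 0.245 (adjusted p = 0.0631, and 0.009 with 21 arrays), the transcription factor Cebpb at 0.58 ± 0.113 (0.0631 and 0.00892) and the secreted protein gene Crispld2 at 0.73 ± 0.145 (0.0646 and 0.00509).

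A list of 24 genes with known glucocorticoid responses was put together after these values had been seen, so its counts describe it and support nothing. Its median change was 0.62, 22 members lay above 0, 4 were called with 23 arrays and 14 with 21, all higher, where 0.0351% and 1.73% of all genes were. Klf9, a Krüppel-like repressor, was 9, 9.02 and 9.20 at 8 weeks and 10.37, 10.83, 9.76 and 9.71 at 18 weeks (1.1 ± 0.217 in the fit of 21 arrays, adjusted p = 0.009). Errfi1, an inhibitor of EGF receptor signalling, rose by 0.92 (adjusted p = 0.0166 with 21 arrays), and the metallothioneins Mt1 and Mt2 by 0.89 and 0.80. With single arrays left out Klf9 kept its call in 7 of 7 fits, Errfi1 in 6, Mt2 in 5 and Mt1 in 4. Other listed genes lay close to 0: Angptl4 at −0.021, Anxa1 at −0.032, Bcl6 at 0.019 and Lcn2 at 0.018, none of them called.

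The circadian clock list had a median change of 0.37 over 17 genes, with 1 called with 23 arrays (Per1) and 5 with 21, all higher, where 1.73% of all genes were. The clock is a feedback loop in which CLOCK and BMAL1 drive the PER and CRY repressors and the REV-ERB receptors. Per2 rose by 0.46, Nr1d1 (REV-ERB alpha) by 0.72, the repressor Bhlhe41 by 0.73 and Nfil3 by 0.44 in the fit of 21 arrays. With single arrays left out, Nfil3 kept its call in 7 of 7 fits, Per2 in 6, and Nr1d1 and Bhlhe41 in 1 each. Nr1d1 was 10.44, 10.06 and 10.50 at 8 weeks and 11.02, 11.52, 11.02 and 10.68 at 18 weeks. On the activating side Arntl (BMAL1) was −0.21 and Clock −0.026, and the repressor Cry1 was 0.001, none of them called. The list mean was 8.71, 8.57 and 8.73 at 8 weeks and 9.02, 9.22, 8.97 and 8.84 at 18 weeks, without overlap. In the RefSeq windows the E-box was in 6 of 20 windows of 15 clock genes. Leaving out single arrays from the fit of 21 gave 2 to 7 called clock genes. With both the muscle and the erythroid mean as covariates in that fit the median was 0.11, with no member called. The CBA median of the list was 0.18 with 21 arrays, with no member called. Its CBA mean was 8.59 to 8.83 at 8 weeks and 8.74 to 9.01 at 18 weeks. The median difference between the strains was 0.065, and no member was called for it.

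Immediate early and heat shock genes, which respond within minutes to stress and growth factors, had a median of 0.26 over 34 genes. Nr4a3 and Hspa1a were called with 23 arrays, and 7 were higher and 1 lower with 21 (1.73% and 6.65% of all genes were); single arrays left out gave 3 to 10 higher. The small chaperone gene Hspb1 was 9.53, 8.75 and 9.26 at 8 weeks and 10.32, 10.79, 9.82 and 10.65 at 18 weeks, a rise of 1.21 ± 0.319 in the fit of 21 arrays (adjusted p = 0.0266) that kept its call in 3 of 7 fits with an array left out. Dusp1, a phosphatase of MAP kinases, rose by 0.67, the AP-1 subunit Jun by 0.61, Hsph1 by 0.74 and Myc by 0.35, while Btg2, an antiproliferative gene, fell by 0.27 in the same fit. Hsph1 kept its call in 5 of 7 fits with an array left out, Dusp1 in 3 and Jun in 2. Fos (0.41), Fosb (0.57) and Egr1 (0.48) were not called. In CBA the median of the immediate early and heat shock list was 0.18 in the fit of 21 arrays, with 1 member higher. The median difference between the strains was 0.11, and no member was called for it. Of 27 genes of the unfolded protein response, which restores protein folding in the endoplasmic reticulum, 3 were higher and 2 lower with 21 arrays (median 0.076), and 0 to 4 and 0 to 2 with single arrays left out. Chac1, a glutathione-degrading enzyme, was 8.07, 8.23 and 8.12 at 8 weeks and 8.71, 8.64, 8.61 and 8.76 at 18 weeks. Of 27 senescence and stress response genes 4 were higher and 4 lower (median −0.047), and 2 to 4 and 1 to 5 with single arrays left out, and the 2 called with 23 arrays were Fkbp5 and Tsc22d3.

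The called falls were smaller in size than the called rises. Prorp, the catalytic subunit of mitochondrial RNase P, was 9.83, 9.90 and 9.95 at 8 weeks and 9.30, 9.45, 9.37 and 9.34 at 18 weeks, and fell by 0.53 ± 0.0929 (adjusted p = 0.0363). Elp4, a subunit of the Elongator complex that modifies transfer RNA, was 9.54, 9.54 and 9.49 at 8 weeks and 8.88, 9.04, 9.08 and 8.88 at 18 weeks, and fell by 0.55 ± 0.0983 (adjusted p = 0.0363). Jhy, a gene needed for motile cilia of the brain lining, was 8.55, 8.77 and 8.86 at 8 weeks and 8.08, 7.93, 8.38 and 8.04 at 18 weeks, and fell by 0.62 ± 0.109 (adjusted p = 0.0363). With single arrays left out of the fit of 23, Prorp kept its call in 1 of 7 fits, Elp4 in 2 and Jhy in 3 (highest adjusted p 0.304, 0.234 and 0.304). At 40 weeks all 3 were again below their 8 week arrays on average in Str/ort, with means of 9.39 for Prorp, 8.85 for Elp4 and 8.02 for Jhy. In CBA, Prorp was 9.81 to 10.22 at 8 weeks and 9.67 to 9.97 at 18 weeks, and Elp4 9.40 to 9.71 and 9.54 to 9.85. Jhy was 8.56 to 8.88 in CBA at 8 weeks and 8.25 to 8.46 at 18 weeks, also without overlap, a change of −0.25 in the fit of 21 arrays that was not called (adjusted p = 0.227), and its difference between the strains was not called either (adjusted p = 0.127). The Str/ort arrays at 8 weeks thus lay within the CBA range for Prorp and Elp4, and those at 18 and 40 weeks lay below it.

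Several of the next genes showed the same step. Gpr155, a lysosomal cholesterol sensor, was 9.71, 9.69 and 9.72 at 8 weeks and 8.97, 8.98, 9.21 and 9.20 at 18 weeks, a change of −0.61 ± 0.118 that was not called with 23 arrays (adjusted p = 0.0564) and was with 21 (0.00215). Haus2, part of the augmin complex of the mitotic spindle, was 9.08, 9.16 and 9.27 at 8 weeks and 8.66, 8.73, 8.34 and 8.42 at 18 weeks (−0.64 ± 0.125, adjusted p = 0.0631 and 0.00303). Srek1ip1, a partner of a splicing factor, was 9.75, 9.57 and 9.66 at 8 weeks and 9.33, 9.25, 9.24 and 9.22 at 18 weeks (−0.40 ± 0.0798, adjusted p = 0.0646 and 0.00657). Their Str/ort means at 40 weeks were 9.11, 8.49 and 9.22. Lgr5, a receptor for R-spondins that strengthens Wnt signals, was 8.54, 8.52 and 8.76 at 8 weeks and 7.77, 7.93, 8.07 and 7.77 at 18 weeks (−0.72 ± 0.147, adjusted p = 0.0812 and 0.00153). Tnfrsf19, a TNF receptor family member, was 10.12, 10.34 and 10.58 at 8 weeks and 9.47, 9.51, 9.85 and 9.74 at 18 weeks (−0.70 ± 0.133, adjusted p = 0.0525 and 0.003). Tet1, which oxidises methylated cytosine in DNA, was 9.51, 9.48 and 9.75 at 8 weeks and 8.86, 8.84, 8.88 and 9.03 at 18 weeks (−0.68 ± 0.143, adjusted p = 0.101 and 0.00207). CBA changes had the same sign for Lgr5 (−0.32), Tnfrsf19 (−0.28) and Tet1 (−0.23) without being called.

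Genes of the cell division cycle were lower at 18 weeks as a group. All 44 measured members of the list lay below 0, with a median of −0.37 against 0.018 for all genes. None was called with 23 arrays, 31 were lower with 21 (6.65% of all genes were) and 27 with the 11 Str/ort arrays (5%), and 34 did not overlap between the ages (14.8%). Cenpf, a kinetochore protein, was 10.06, 10.08 and 10.09 at 8 weeks and 9.43, 9.24, 9.42 and 9.68 at 18 weeks, and fell by 0.63 ± 0.115 in the fit of 21 arrays (adjusted p = 0.00609). Kif11, the motor that separates the spindle poles, was 11.61, 11.58 and 11.50 at 8 weeks and 10.90, 10.93, 11.01 and 11.23 at 18 weeks (−0.54 ± 0.0977, adjusted p = 0.00593). The fall covered both ends of the cycle: of the replication helicase genes Mcm2 to Mcm7 all 6 fell, by 0.37 (Mcm5) to 0.49 (Mcm4), and so did the mitotic genes Bub1b (−0.49), Cenpe (−0.50) and Prc1 (−0.44), while Cdt1 (−0.083), Foxm1 (−0.13) and Ube2c (−0.098) were not called. Leaving out single arrays from the fit of 21 gave 13 to 34 lower members, the fewest without 8 weeks replicate 1 and the most without 18 weeks replicate 4.

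In order of replicate, the cell cycle mean was 11.08, 11.02 and 10.92 at 8 weeks and 10.54, 10.59, 10.67 and 10.80 at 18 weeks. The erythroid mean, over genes of dividing and maturing red cells, was 11.33, 11.08 and 10.98 at 8 weeks and 10.62, 10.44, 10.90 and 11.07 at 18 weeks. Among the 18 week arrays both were highest in replicate 4. With 2 covariates, the muscle mean and the erythroid mean, in the fit of 21 arrays no gene of the array was called (lowest adjusted p 0.0679, for Zbtb16; 2508 genes had an unadjusted p under 0.05), and the cell cycle median was −0.20. The change of Cenpf was then −0.44 and that of Igll1 −0.64, against −0.63 and −0.85 without covariates. For Haus2 it was −0.67 against −0.64, for Lgr5 −0.70 against −0.72, for Tet1 −0.70 against −0.68, for Fzd1 0.64 against 0.73 and for Hspa1a 1.23 against 1.08. In CBA, without the array that stood apart, the cell cycle median was 0.062, with 2 members higher and none lower.

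Promoter stretches of Cdk1, the kinase that starts mitosis, and Top2a, the topoisomerase that untangles chromosomes, are printed as examples of the shared letters of this group; Cdk1 fell by 0.37 and Top2a by 0.43 in the fit of 21 arrays. Capitals mark TTTGAA, the cell cycle homology element, and CCAAT, both read on either strand. TTTGAA was in 19 of 37 RefSeq windows of 35 cell cycle genes (51.4%) against 17.9% of all windows, and CCAAT in 28 of 37 (75.7%) against 37.4%. The Cdk1 stretch is chr10:69352918-69353007 and the Top2a stretch chr11:99024200-99024294, both on the minus strand of GRCm38.p6.
Cdk1: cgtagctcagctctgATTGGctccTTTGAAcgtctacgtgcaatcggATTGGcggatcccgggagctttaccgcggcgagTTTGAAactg
Top2a: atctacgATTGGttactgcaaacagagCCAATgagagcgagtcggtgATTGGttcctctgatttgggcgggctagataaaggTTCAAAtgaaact

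Genes of B cell precursors were lower at 18 weeks, while a gene of antibody-secreting cells was higher. Of 24 B lymphocyte genes none was called with 23 arrays; 13 were lower and 1 higher with 21 (6.65% and 1.73% of all genes were), the median was −0.45, and 14 lay below the 8 week arrays without overlap (14.8%). Leaving out single arrays gave 9 to 14 lower members. Igll1, part of the surrogate light chain of pre-B cells, was 12.06, 12.04 and 12.25 at 8 weeks and 11.12, 11.05, 11.53 and 11.39 at 18 weeks, and fell by 0.85 ± 0.112 in the fit of 21 arrays (adjusted p = 0.00105). Rag1, which cuts DNA for antigen receptor assembly, was 9.33, 9.54 and 9.64 at 8 weeks and 8.59, 8.45, 8.91 and 8.74 at 18 weeks (−0.83 ± 0.122, adjusted p = 0.00215). Dntt, which adds bases at the joined ends, fell by 0.77 (adjusted p = 0.00725), and its partners in the same stage, Rag2 (−0.64), Vpreb3 (−0.65), Blnk (−0.76) and Il7r (−0.46), fell as well. Igll1 and Rag1 kept their calls in all 7 fits with an array left out. Jchain, the joining chain of secreted antibody, rose by 0.72 ± 0.2 (adjusted p = 0.0321, kept in 2 of 7 fits with an array left out), and Ighm, the heavy chain of IgM, was 0.15 and not called. The list mean was 10.20, 10.22 and 10.27 at 8 weeks, 9.81, 9.67, 10.05 and 9.86 at 18 weeks and 9.63 to 9.92 at 40 weeks. In CBA the median was −0.16 with no member called, Igll1 was −0.29 and Rag1 −0.31. At 40 weeks the B lymphocyte mean thus lay below all 8 week arrays, while the erythroid mean, at 11.04 to 11.32, lay within theirs (10.98 to 11.33).

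**Figure D3:**
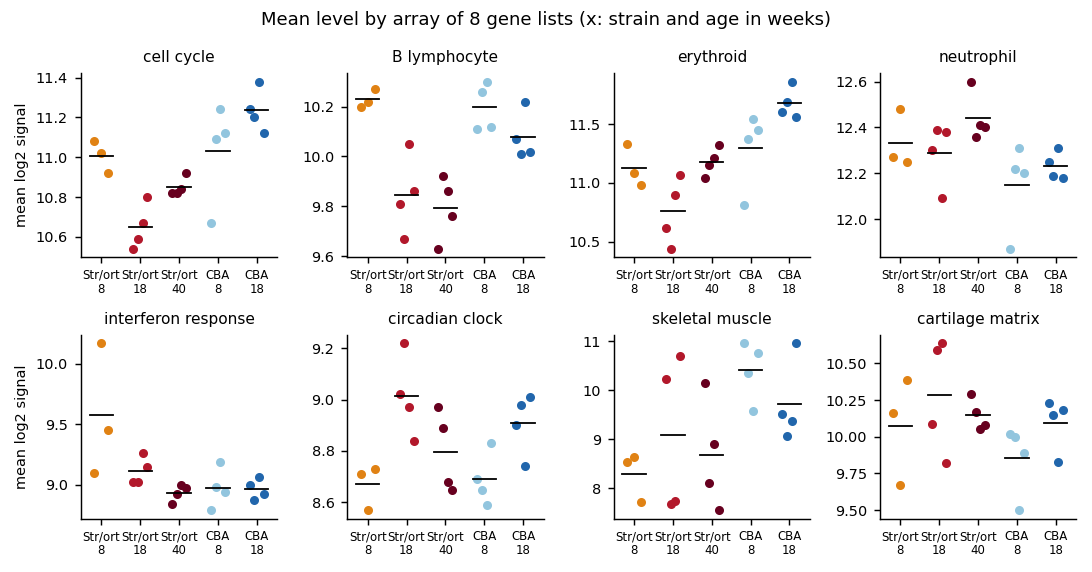
Mean log2 signal (vertical) of 8 gene lists by array for Str/ort at 8, 18 and 40 weeks and CBA at 8 and 18 weeks; each point is 1 array and each bar a group mean. The B lymphocyte and cell cycle means of all 4 Str/ort arrays at 18 weeks lie below the 3 at 8 weeks; 1 array at 8 weeks stands high for the interferon genes, at 10.17, and the muscle mean at 18 weeks spans 7.68 to 10.70.

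Markers of other blood cells moved unevenly. All 20 erythroid genes lay below 0 (median −0.39) and 6 were lower with 21 arrays, but single arrays left out gave 0 to 15; Epb42, a red cell membrane protein, fell by 0.57 ± 0.144 (adjusted p = 0.0234). Neutrophil genes had a median of −0.051 over 22 genes and none called in either fit; Prtn3 was −0.18 and Ctsg −0.15. Among 17 mast cell, basophil and eosinophil genes 7 were lower with 21 arrays (median −0.32; 6.65% of all genes were lower), but 2 without 8 weeks replicate 2 and 4 without 18 weeks replicate 3. Several were eosinophil genes: Ccr3, the eotaxin receptor, was 8.40, 8.51 and 8.43 at 8 weeks and 7.40, 7.51, 6.83 and 7.72 at 18 weeks (−1.08 ± 0.238, adjusted p = 0.0137). Eosinophil peroxidase, Epx, fell by 0.72 and the ribonuclease gene Ear6 by 0.67, and Il5ra, the receptor for interleukin 5, by 0.55. The mast cell proteases Mcpt4 (0.19), Cma1 (0.065) and Tpsb2 (0.12) were not called, but the receptor gene Kit of the same list was lower. Kit changed by −0.49 to −0.32 with single arrays left out and kept its call in 4 of 7 fits. Of 27 macrophage genes 5 were lower (median −0.14), and 1 to 5 with single arrays left out, the fewest without 8 weeks replicate 2; without 8 weeks replicates 1 or 3 or 18 weeks replicate 3 there were 2. Spic, a transcription factor of the macrophages that recycle red cells, was 9.33, 9.26 and 9.23 at 8 weeks and 8.21, 7.95, 7.94 and 8.59 at 18 weeks, and fell by 1.10 ± 0.255 (adjusted p = 0.0166), while Timd4 fell by 0.60, Cx3cr1 by 0.53, Siglec1 by 0.51 and Adgre1 (F4/80) by 0.47; Cx3cr1 kept its call in 7 of 7 such fits, Spic in 5, Timd4 in 3, Siglec1 in 2 and Adgre1 in 1. Csf1r, Cd68 and Lyz2, at −0.14, −0.19 and −0.038, were not called. Of 22 T and NK lymphocyte genes 1, Cd4, was lower (median −0.094), from 8.72, 8.83 and 8.70 to 8.21, 7.90, 7.8 and 8.16. Among the other large falls with 21 arrays were lymphocyte genes outside these lists: Il2ra, a subunit of the interleukin 2 receptor (−0.84), the adhesion receptor gene Slamf6 (−0.83), the transcription factor Irf4 (−0.80) and Cd180, a Toll-like receptor homologue of B cells (−0.96).

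Among the 15 largest called changes each way with 21 arrays, those without overlap and not yet named were spread over many functions. Higher were Tnfrsf12a, the receptor of the cytokine TWEAK (1.11 ± 0.237), the small G protein gene Rasd1 (1.08 ± 0.264), the sialidase gene Neu2 (0.97 ± 0.26) and Fam180a (0.94 ± 0.237). Tnfrsf12a was 9.48, 8.99 and 9.28 at 8 weeks and 10.39, 10.88, 10.43 and 9.77 at 18 weeks. Lower were Chn1, a regulator of the G protein Rac (−0.81 ± 0.245), the prostaglandin D synthase gene Hpgds (−0.78 ± 0.195), the secreted protein gene Ndnf (−0.78 ± 0.184), the zinc finger gene Zfp979 (−0.77 ± 0.203) and Trim30d (−0.77 ± 0.187). Hpgds was 9.71, 9.55 and 9.60 at 8 weeks and 9.07, 8.90, 8.45 and 8.91 at 18 weeks. With single arrays left out of the 7, Tnfrsf12a kept its call in 6 fits, Ndnf and Trim30d in 5, Rasd1 and Fam180a in 4, Hpgds and Zfp979 in 3, Neu2 in 2 and Chn1 in 1 (highest adjusted p 0.177).

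Interferon-stimulated genes gave a lower median that leaned on 1 array. Of 35 genes 34 lay below 0 (median −0.45), none was called with 23 arrays, 11 were lower with 21 and 6 with 11 (6.65% and 5% of all genes were). Ifit1, which binds viral RNA, was 9.29, 10.57 and 9.19 at 8 weeks and 8.32, 8.28, 8.83 and 8.45 at 18 weeks (−1.21 ± 0.245, adjusted p = 0.0716 with 23 arrays and 0.00918 with 21). Ifit3 was 8.64, 10.56 and 8.92 at 8 weeks and 8.33, 8.18, 8.75 and 8.27 at 18 weeks, with an overlap between the ages. The 8 weeks replicate 2 array was the high one in both. The list mean was 9.10, 10.17 and 9.45 at 8 weeks and 9.02 to 9.26 at 18 weeks. Without that array the median was −0.21 and 1 member was lower in the fit of 21 arrays; without 8 weeks replicate 1 they were −0.66 and 23. Ifit1 kept its call in all 7 such fits, with changes of −1.46 to −0.77, and Ifit3 in 1.

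The Ifit1 and Ifit3 promoters are printed because they hold 2 copies each of GAAA repeated after any 2 bases, the core of the interferon-stimulated response element, here on the opposite strand and marked by capitals. These letters, read on both strands, were in 14 of 35 windows of 28 interferon genes (40%) and in 3.44% of all windows. The stretches are chr19:34640759-34640828 for Ifit1 and chr19:34583359-34583428 for Ifit3, both on the plus strand of GRCm38.p6, with the copies starting 104 and 85 and 156 and 122 bases before the start.
Ifit1: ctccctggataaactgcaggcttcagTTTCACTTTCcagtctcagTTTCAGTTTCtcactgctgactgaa
Ifit3: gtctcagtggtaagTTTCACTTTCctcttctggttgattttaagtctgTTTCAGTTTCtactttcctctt

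Of 12 antigen presentation genes 2 were lower with 21 arrays (median −0.26), and 0 to 2 with single arrays left out, among them Cd1d1, which presents lipids, from 9.36, 9.08 and 9.16 to 8.47, 8.58, 8.91 and 8.55. Of 18 cholesterol synthesis genes 8 were lower with 21 arrays (6.65% of all genes were) and 7 with 11 (5%), none was called with 23, and the median was −0.29. The 8 became 2 without 8 weeks replicate 2, and 3 without 8 weeks replicate 1 or 3 or 18 weeks replicate 1. Sqle, which makes the first oxygenated step towards sterols, was 9.48, 9.56 and 9.52 at 8 weeks and 8.83, 9.27, 9.20 and 9.01 at 18 weeks (−0.44 ± 0.0905, adjusted p = 0.0101) and kept its call in all 7 fits with an array left out. Insig1, the sensor that holds back sterol synthesis, fell by 0.47 (called in 4 of 7 such fits), Fdft1 by 0.36 and Sc5d by 0.34 (6 of 7 each), whereas Mvk (0.0049), Pmvk (−0.049) and Srebf2 (0.015) were not called. The CBA median of the list was 0.038.

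Several genes of cartilage matrix and its turnover spread widely between arrays of 1 age, and no gene of these lists passed the test in the fit of 23 arrays. Col2a1 was 10.28, 9.76 and 10.65 at 8 weeks and 10.04, 10.24, 11.38 and 10.19 at 18 weeks, a change of 0.23 ± 0.281 (adjusted p = 0.726). Acan was 10.65, 9.57 and 11.27 at 8 weeks and 11.05, 12.23, 12.00 and 10.09 at 18 weeks (0.85 ± 0.505, adjusted p = 0.489). Sox9, the transcription factor that drives both genes, was 9.14, 8.70 and 9.41 at 8 weeks and 9.57, 10.49, 10.50 and 9.19 at 18 weeks (0.86 ± 0.269, adjusted p = 0.224). It was called with 21 arrays (adjusted p = 0.0427) but kept that call in 1 of 7 fits with an array left out. Acan and Sox9 were lowest at 8 weeks in replicate 2 and at 18 weeks in replicate 4. The same order held for Comp, a matrix linker protein, at 0.59 ± 0.359, and for the hypertrophic collagen Col10a1, at 0.79 ± 0.399 (adjusted p = 0.5 and 0.417).

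The main collagenase and aggrecanases and stromelysin did not pass the test. Mmp13 was 12.38, 12.11 and 12.28 at 8 weeks and 12.49, 12.06, 12.84 and 12.24 at 18 weeks, a change of 0.15 ± 0.262 (adjusted p = 0.805). Adamts5 changed by −0.076 ± 0.198 and Adamts4 by 0.12 ± 0.18 (adjusted p = 0.874 and 0.771). Mmp3, or stromelysin, was 8.34, 7.62 and 8.62 at 8 weeks and 10.15, 8.69, 9.40 and 8.16 at 18 weeks (0.91 ± 0.376, adjusted p = 0.336). Its inhibitor gene Timp1 was 10.90, 10.42 and 11.12 at 8 weeks and 12.12, 11.96, 11.81 and 10.64 at 18 weeks (0.82 ± 0.33, adjusted p = 0.323), with 1 overlapping array, replicate 4. Timp3 differed by 0.40 ± 0.196 and Prg4 by 0.10 ± 0.109 (adjusted p = 0.404 and 0.696). The SEs of Acan, Comp, Col10a1 and Mmp3, at 0.359 to 0.505, were well above the median SE of 0.126, and that of Prg4 was below it. In CBA the change of Mmp13 was −0.69 in the fit of 21 arrays and not called (adjusted p = 0.0949), and its difference between the strains was 0.85 ± 0.282 (adjusted p = 0.0943).

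**Figure D4:**
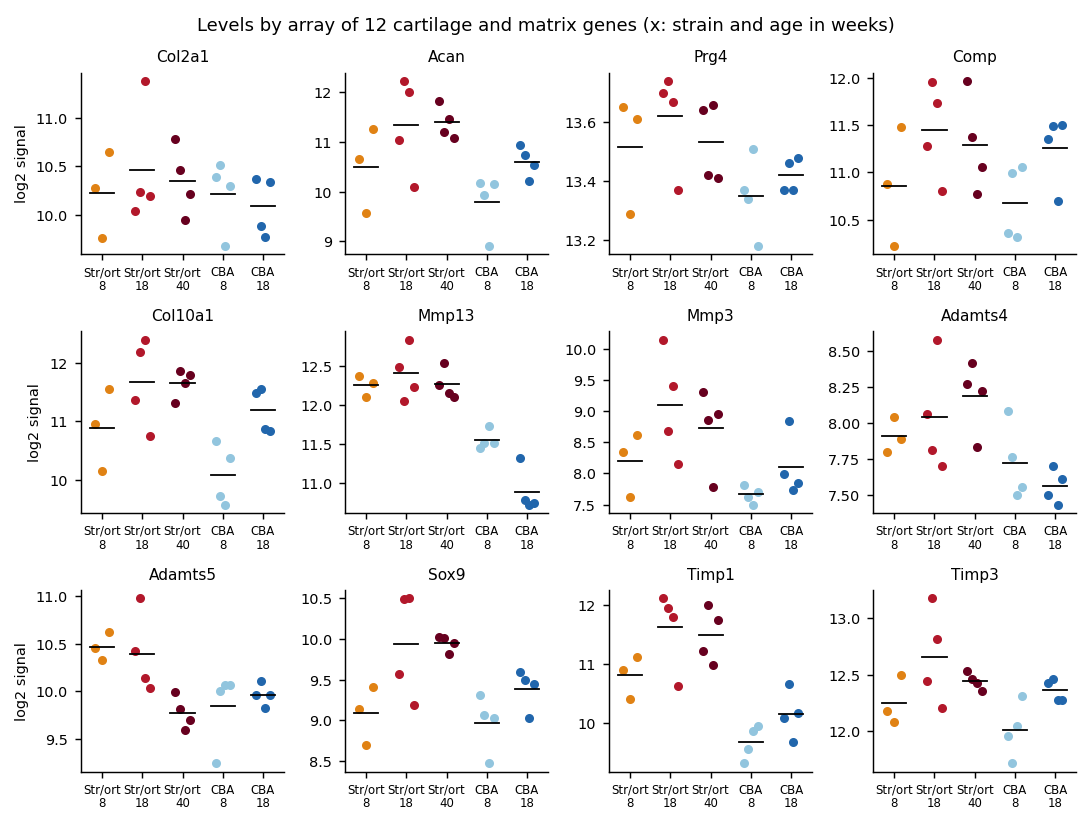
Log2 signal (vertical) by array of 12 cartilage and matrix genes for Str/ort at 8, 18 and 40 weeks and CBA at 8 and 18 weeks; each point is 1 array and each bar a group mean. The Str/ort arrays of 8 and 18 weeks overlap in all 12 panels; Acan, for example, spans 9.57 to 11.27 at 8 and 10.09 to 12.23 at 18 weeks.

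The matrix lists had medians above 0 with few or no calls with 21 arrays. Cartilage matrix (30 genes) had a median of 0.16 and none called, with Cilp at 0.60 and Acan the largest; hypertrophy and mineralisation (17) had 0.17 and superficial zone (16) 0.18, also with none. Chondrocyte regulators (23) had 0.13 and 2 higher, Sox9 and Foxa2, and none in 6 of 7 fits with an array left out. The list of fibrillar and other collagens stood apart by its lack of overlap, with a median of 0.32. Of its 21 genes 11 were higher in every 18 week array than in every 8 week array, where 10.2% of all genes were. Called with 21 arrays were Col4a2 (0.42) and Col4a1 (0.37), the chains of basement membrane collagen, and Col8a2 (0.34). Col4a2 was 8.69, 8.86 and 8.72 at 8 weeks and 9.24, 9.20, 9.26 and 9.01 at 18 weeks, and the count of called collagens was 0 to 7 with single arrays left out. Col6a3 (0.79) and Col6a2 (0.59), of the microfibrils around chondrocytes, were not called. With both the muscle and the erythroid mean as covariates in the fit of 21 arrays the collagen median was 0.099, with none called. The mean of the collagen list was 9.58 to 9.85 at 8 weeks, 9.75 to 10.2 at 18 weeks and 9.54 to 10.04 at 40 weeks. In CBA the collagen median was −0.051. Glycoproteins and small proteoglycans (39 genes) had a median of 0.22 and 1 higher, Ltbp2, and collagen synthesis and crosslinking (27) 0.15 and none. Of 37 proteases and inhibitors (median 0.12) Adamts1 was higher, at 0.75, and Mmp16, Mmp11 and Adam17 were lower, with Mmp16 at −0.60 and Adam17 at −0.30; single arrays left out gave 0 to 7 higher, the 7 without 18 weeks replicate 4 and none in the others, and 0 to 3 lower.

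Signalling lists showed single members with 21 arrays, where 1.73% of all genes were higher and 6.65% lower. In the Wnt pathway (40 genes, median 0.18) Fzd1 was the gene called with 23 arrays, and Fzd9 and Wnt1 were added with 21. Fzd9 was 8.34, 8.25 and 8.81 at 8 weeks and 8.89, 10.17, 9.39 and 8.77 at 18 weeks. The TGF-beta and BMP pathway (44 genes, median 0.12) had 1 higher, the activin antagonist Fst, and 1 lower, Bmp3. Growth hormone and IGF genes (28, median 0.11) had none. Of 36 inflammatory mediators 2 were higher (median 0.019): Osmr, the oncostatin M receptor, from 10.12, 9.94 and 10.16 to 10.74, 10.83, 10.58 and 10.23, and the chemokine gene Cxcl14, from 10.45, 10.45 and 10.60 to 10.99, 11.27, 10.87 and 10.70. Tnfaip6, induced by TNF in joints, was 7.37, 7.02 and 7.29 at 8 weeks and 8.85, 8.45, 9.38 and 7.35 at 18 weeks and was not called. Complement (17 genes, median −0.11) had 1 higher, the lectin pathway protease gene Masp1. With single arrays left out of the 7, Fst kept its call in 6 fits, Cxcl14, Fzd9, Wnt1 and Bmp3 in 3, Masp1 in 2 and Osmr in 1, and the counts of higher members were 1 to 5 for the Wnt list and 0 to 3 for the inflammatory one. Oxidative phosphorylation (35 genes, median −0.03) and glycolysis and hypoxia (29 genes, median 0.13) had none.

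Markers of neighbouring tissues were looked at in the same way. Skeletal muscle had the largest median of any list, 0.88 over 40 genes, and no call: myoglobin, Mb, was 8.91, 8.99 and 7.54 at 8 weeks and 11.32, 8.20, 8.46 and 12.15 at 18 weeks. The muscle mean was high in 18 weeks replicates 1 and 4 (10.24 and 10.70) and within the 8 week range in 3 (7.74), with replicate 2 just below it (7.68). In CBA the muscle median was −0.60 in the fit of 21 arrays, also with no call. Tead1, a transcription factor of the Hippo pathway, was likewise high in those replicates, at 9.88 and 9.94, but also in replicate 2, at 9.76; its rise of 0.98 (adjusted p = 0.0265 with 21 arrays) was 0.52 once both the muscle and the erythroid mean were covariates (adjusted p = 0.362). Osteoblast genes (20, median 0.16) had 2 lower with 21 arrays, Bmp3 and the potassium channel gene Kcnk2, and osteoclast genes (17, −0.018) had Nfatc1 higher and Car2 lower. Synovial and tendon genes (25, 0.23), adipocyte genes (19, −0.12) and endothelial genes (25, 0.021) had 1 lower each, Dpp4, Lpl and Stab2. Schwann cell (15, 0.055) and pericyte genes (20, 0.2) had none, and of 14 keratinocyte genes (0.073) Krt15 was higher. These counts compare with 1.73% higher and 6.65% lower over all genes. With single arrays left out of the 7, Dpp4 kept its call in 7 fits, Kcnk2 in 4, Krt15 and Bmp3 in 3, and Nfatc1, Car2, Lpl and Stab2 in 1. Of the 4 sex chromosome genes measured (median −0.40) the Y-linked Uty and Kdm5d were lower, each by 0.36, with adjusted p = 0.0369 and 0.026 in the fit of 21 arrays; both kept their calls in 2 of 7 fits with an array left out.

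**Figure D5:**
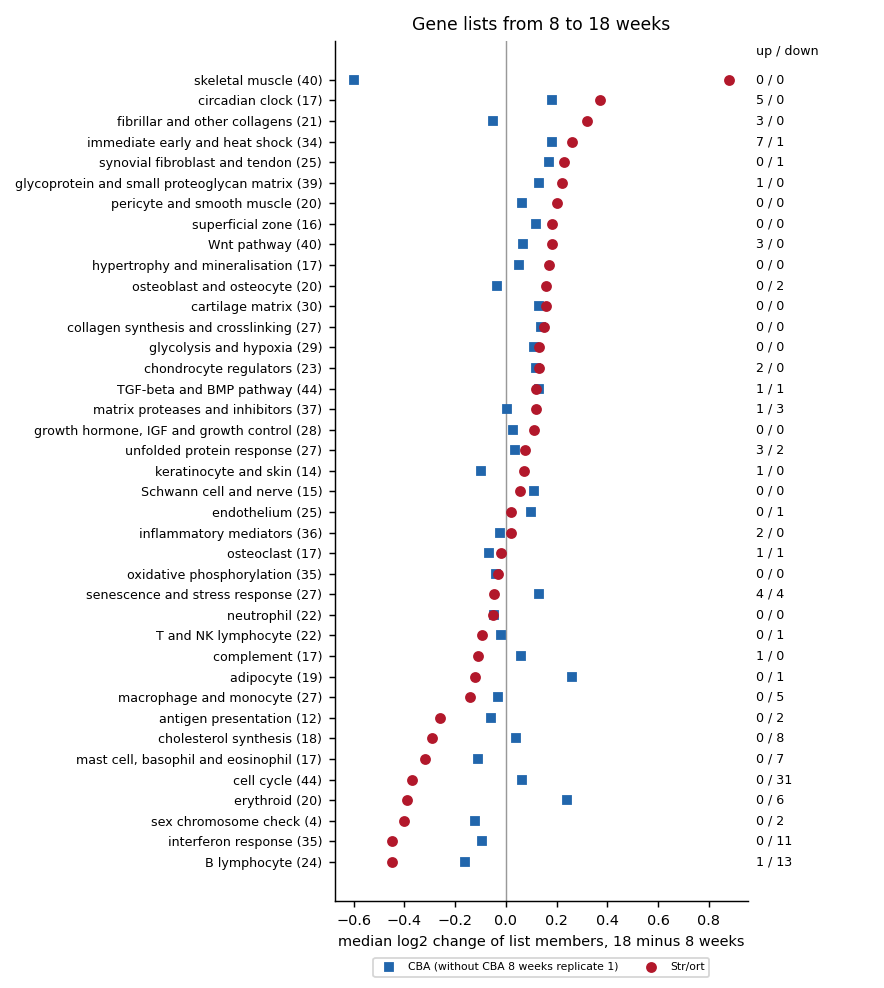
Median log2 change from 8 to 18 weeks (horizontal) of the 39 gene lists, with the number of measured members in brackets; red circles are Str/ort, blue squares CBA without the 8 week array that stood apart, and the figures at the right count members higher and lower in Str/ort in the fit of 21 arrays. Cell cycle, with 0 and 31, has the most calls; skeletal muscle has the largest median, 0.88, and none.

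In CBA over the same ages no gene was called with 23 arrays, with 3507 genes at an unadjusted p under 0.05, against 2494 for Str/ort. With 21 arrays 176 CBA genes were higher (0.883%) and 12 lower (0.0602%). The test of the difference between the strains' changes called no gene with 23 arrays (4204 at an unadjusted p under 0.05), and 30 with a higher change in Str/ort (0.15%) and 251 with a lower one (1.26%) with 21. Both counts were 0 when any 8 week Str/ort array, 18 weeks Str/ort replicate 1 or 2, 8 weeks CBA replicate 2 or 4, or 18 weeks CBA replicate 1 or 2 was left out. Zbtb16 differed by 1.16 ± 0.266 (adjusted p = 0.0466), with CBA at 9.04 to 9.43 at 8 weeks and 9.40 to 9.82 at 18 weeks. Fkbp5 (0.99 ± 0.267, adjusted p = 0.0578), Tsc22d3 (1.09 ± 0.285, 0.0537) and Per1 (0.96 ± 0.264, 0.0593) fell short. Elp4 (−0.65 ± 0.124, adjusted p = 0.0437), Prorp (−0.48 ± 0.104, 0.0439), Gpr155 (−0.51 ± 0.127, 0.0496) and Haus2 (−0.63 ± 0.142, 0.0466) differed. Of 44 cell cycle genes 16 had a lower change in Str/ort, and of 24 B lymphocyte genes none.

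The smallest p-values for that difference belonged to genes whose changes had opposite signs in the strains. Adamts18, an orphan metalloprotease, was 8.52, 8.54 and 8.83 in Str/ort at 8 weeks and 7.97, 8.10, 8.32 and 8.16 at 18 weeks. In CBA it was 7.50 to 7.76 and then 7.65 to 8.20, and the difference was −0.99 ± 0.17 (adjusted p = 0.0437 with 21 arrays, 0.205 with 23). Snx32, a sorting nexin (−0.61 ± 0.122), the thioesterase-like gene Them6 (−0.70 ± 0.15) and Atp6v0a1, a subunit of the proton pump of vesicles (−0.53 ± 0.107), also had a lower change in Str/ort. In the other direction were Syndig1l (0.59 ± 0.111), the secretin gene Sct (0.52 ± 0.116), the vault RNA Vaultrc5 (1.22 ± 0.289), the acute phase gene Crp (0.48 ± 0.099) and the glycosyltransferase gene Gcnt3 (0.44 ± 0.0996). None of them was called with 23 arrays. The Str/ort change alone was not called with 21 arrays for Them6 (−0.23, adjusted p = 0.163), Atp6v0a1 (−0.22, 0.0709) and Vaultrc5 (0.34, 0.288). The CBA change was called for Them6 (0.47, adjusted p = 0.0436) and Vaultrc5 (−0.88, 0.0476), and not for Atp6v0a1 (0.30, 0.0557). For Adamts18, Snx32, Syndig1l, Sct, Crp and Gcnt3 the Str/ort change was called with 21 arrays. Sqle, of cholesterol synthesis, differed by −0.64 ± 0.128 (adjusted p = 0.0437 with 21 arrays), Epb42, of red cells, by −0.82 ± 0.204 (0.0496) and Cd180 by −0.98 ± 0.208 (0.0437).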

How the data were processed

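RNA from articular cartilage was labelled with biotin and hybridised to 1 array per sample, per the labels. Per the submitters' processing notes the authors summarised the arrays with RMA, and the deposited signals are in log2 units. No RMA version, scan date or batch was found in the sources used here. No value was missing, no pair of arrays was identical, and the number of arrays limits the precision. Of 34760 clusters, 21640 carry 1 gene, 1321 several and 11799 none; the 13120 without 1 gene stayed out of the comparisons. For 954 genes with several clusters the one with the highest mean was used. Names come from the platform annotation, and 21553 Entrez identifiers matched RefSeq of GRCm38.p6 and 87 did not.

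A group-means model was fitted with limma 3.58.1 in R 4.3.3 to 23 arrays (residual df 17, prior df 4.15) and again to 21 (residual df 15, prior df 4.53). Benjamini-Hochberg adjustment of the p-values ran over all 19937 genes, with a threshold of 0.05, and SEs are the moderated ones. The script was tested on simulated data.

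The comparison, the 39 gene lists (984 of 1049 entries measured) and the tests were chosen with earlier results of these data known. Of genes without overlap the text names the 10 of smallest p each way, the largest called changes with 21 arrays, the 5 of smallest p each way for the strain difference, up to 4 members of a list, a fixed set of cartilage genes, and others chosen after their values were seen. Alternatives were a filter on dim genes, the mean of a gene's clusters, single clusters, array weights (statmod 1.5.0), quantile normalization, limma's trend and robust options, a replicate block, muscle and erythroid covariates, fewer arrays, and single arrays left out.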

Additional observations from a re-analysis of the deposited data

Results flagged for a closer look

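In the 4 Str/ort arrays of 18 weeks, 141 sets of values (the named genes and the list means) were searched for an array far from the other 3. Chance alone gives such an array in about 5% of sets, and 9 sets were found, close to that share. The sets are not independent, because many named genes also enter the list means. In replicate 2, Cebpb was 8.97 against 8.5 to 8.56 in the others, Creld2 was 10.77 against 10.94 to 10.98, and the mean of the glycolysis and hypoxia list was 10.5 against 10.36 to 10.37. In replicate 3, Col2a1 was 11.38 against 10.04 to 10.24, and Sp7, an osteoblast transcription factor, was 10.05 against 9.26 to 9.38. In replicate 4, Col6a2 was 10.42 against 10.88 to 10.95, Lpl was 10.89 against 10.23 to 10.31, and the mean of the proteases and inhibitors was 9.83 against 10.16 to 10.18. In replicate 1, Vegfa was 9.46 against 9.55 to 9.56.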

How the results depend on the processing

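The count of calls depended on which arrays set the spread. For genes higher and lower at 18 weeks in Str/ort (7 and 3 with all 23 arrays) it was 344 and 1325 without the 2 CBA arrays that stood apart, 271 and 997 in the 3 Str/ort groups, 102 and 472 in the 2 groups compared, and 952 and 2165 with array weights. A muscle covariate gave 21 and 7, and muscle and erythroid covariates 19 and 7. Leaving out dim genes gave 7 lower, cluster means 5 and single clusters 6. Single arrays left out gave 0 to 35 higher and 0 to 7 lower, and from the fit of 21 arrays 86 to 618 and 400 to 1497; both covariates in that fit gave 0 and 0. Array weights gave 101 and 12 called genes in CBA and 219 and 840 for the difference between strains. Without the 2 arrays these were 176 and 12, and 30 and 251. Single arrays left out gave 0 to 3 higher and 0 to 2 lower in CBA (both highest without 8 weeks replicate 4), 0 and 0 to 1 for the difference, and 0 to 152 and 0 to 749 for the difference in the fit of 21. The causes were not tested.

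The replicate numbers did not pair the arrays: deviations of same-numbered Str/ort arrays of 8 and 18 weeks correlated at 0.2, −0.37 and 0.31. A replicate block gave 5 higher and 0 lower genes.

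Some genes that were not called changed sign. Adamts5 went to 0.017 with quantile normalization, and Prtn3 to 0.079 and Ctsg to 0.021 with both covariates. Leaving out 1 array at a time moved Col2a1 between −0.071 and 0.44, Prg4 from −0.013 to 0.19, Adamts4 from −0.058 to 0.24 and Adamts5 from −0.27 to 0.045. Xist ranged from −0.91 to 0.015, the latter without 8 weeks replicate 1.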

Other observations

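Of the 13120 clusters with several genes or none, 0 were called between 8 and 18 weeks in Str/ort with 23 arrays by limma, and 5 higher and 12 lower with 21 arrays.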
